A study of Mus musculus with 15 samples.

Results

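The genes described here encode the subunits of the oxidative phosphorylation machinery that are made from nuclear DNA. They were chosen by symbol: names that start with Nduf and a subunit letter (complex I), the 4 Sdh genes (complex II), Uqcr genes (complex III), Cox4 to Cox8 genes (complex IV) and Atp5 genes (complex V), without assembly factors. The rule found 81 genes of the 18194 with a single symbol on the array, and 79 of them passed the filter on low signal that left 11673 genes for testing. The 79 were 34 genes of complex I, 4 of complex II, 8 of complex III, 16 of complex IV and 17 of complex V. Where a gene had several probe sets, which was so for 48 of the 81, the probe set with the highest mean signal stood for it.

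Whole mouse hearts were profiled on Affymetrix arrays after aldosterone, the adrenal steroid that acts on the mineralocorticoid receptor. There were 7 aldosterone arrays and 7 control arrays, 1 of each at 0.5, 1, 2, 3, 4, 5 and 12 h, and 1 array at 0 h from a control without an injection. Per the labels, it is unknown if each array came from a single mouse or from pooled mice, so the p-values cover the spread among arrays alone, part of which may be technical. No dose, no control treatment, strain, age or genotype is given by the labels.

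Oxidative phosphorylation passes electrons from NADH (through complex I) and from succinate (through complex II) to ubiquinone, on to cytochrome c through complex III and to oxygen at complex IV. Complexes I, III and IV pump protons across the inner mitochondrial membrane, and complex V, the ATP synthase, uses the proton gradient to make ATP. Heart muscle depends on this supply for contraction, is rich in mitochondria and uses muscle isoforms of several complex IV subunits. Nuclear subunit genes are known to be transcribed under factors such as NRF1, the ETS factor GABP (also called NRF2), YY1 and the estrogen-related receptors (ERR), with PGC-1 coactivators.

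RefSeq promoters (build GRCm38.p6, 250 bases before to 50 after the start) were matched for 66 of the 81 genes, 71 promoters in all. The ETS core CCGGAAG, searched on both strands, was in 17 of the 71 (23.9%), against 15.9% of the promoters of all tested genes. The NRF1 core GCGCATGCGC, a palindrome, was in 4 (5.63%, against 1.93%), the YY1 core AAGATGGC in 9 (12.7%, against 4.17%), and the ERR site TCAAGGTCA in 2 (2.82%, against 0.29%). These matches describe letters in a window and are not binding sites measured here.

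The promoters below belong to members that the results turn on: Ndufa3, the member that differed between times; Ndufv1 and Uqcrc1, which differed with the Gapdh ratio of the arrays on the quantile scale; and Cox7a1 and Cox8b, the muscle isoforms that were lowest at 1 h after quantile normalization. Capitals mark a match to one of those motifs on either strand; lines without capitals held none of these letters.
Ndufa3 (chr7:3617123-3617422, plus strand): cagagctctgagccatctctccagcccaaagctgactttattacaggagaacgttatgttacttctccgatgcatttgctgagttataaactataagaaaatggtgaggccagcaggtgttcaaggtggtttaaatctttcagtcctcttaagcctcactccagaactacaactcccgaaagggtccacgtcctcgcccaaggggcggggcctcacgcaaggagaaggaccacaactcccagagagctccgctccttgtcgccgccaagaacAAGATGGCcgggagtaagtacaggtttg
Uqcrc1 (chr9:108936398-108936697, plus strand): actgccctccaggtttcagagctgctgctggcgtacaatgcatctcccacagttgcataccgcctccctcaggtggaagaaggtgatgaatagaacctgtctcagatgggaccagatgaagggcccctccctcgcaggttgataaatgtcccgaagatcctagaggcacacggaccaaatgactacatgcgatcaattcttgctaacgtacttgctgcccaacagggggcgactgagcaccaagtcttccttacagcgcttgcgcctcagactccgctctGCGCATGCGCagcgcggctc
Ndufv1 (chr19:4012706-4013005, minus strand): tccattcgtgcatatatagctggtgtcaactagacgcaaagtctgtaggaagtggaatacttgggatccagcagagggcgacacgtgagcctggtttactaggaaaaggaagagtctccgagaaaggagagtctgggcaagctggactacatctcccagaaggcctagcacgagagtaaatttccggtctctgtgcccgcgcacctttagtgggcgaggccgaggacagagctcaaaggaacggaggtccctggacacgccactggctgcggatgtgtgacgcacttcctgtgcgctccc
Cox7a1 (chr7:30183921-30184220, plus strand): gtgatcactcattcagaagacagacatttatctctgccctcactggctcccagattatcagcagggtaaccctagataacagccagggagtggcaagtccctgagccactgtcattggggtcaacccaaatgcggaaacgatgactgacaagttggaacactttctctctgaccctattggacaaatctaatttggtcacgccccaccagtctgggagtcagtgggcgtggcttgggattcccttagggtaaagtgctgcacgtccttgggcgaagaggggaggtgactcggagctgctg
Cox8b (chr7:140900397-140900696, minus strand): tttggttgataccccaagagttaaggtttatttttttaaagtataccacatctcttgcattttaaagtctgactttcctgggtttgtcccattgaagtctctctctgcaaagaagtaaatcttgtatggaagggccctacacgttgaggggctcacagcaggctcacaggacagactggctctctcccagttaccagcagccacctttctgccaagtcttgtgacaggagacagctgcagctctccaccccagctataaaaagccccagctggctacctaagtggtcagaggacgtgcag

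Values below are log2(signal + 167.8) after quantile normalization, called the log2 level, and differences are on the same scale. Signals of different probe sets are not levels that can be set against each other, so each gene is compared only with itself. The members' mean deposited signals ran from 548.1 to 252400 with a median of 87290, and a member varied over the 15 arrays with a median SD of 0.13 log2. The steadiest were Atp5g3 (SD 0.053), a gene for the ATP synthase c subunit, Cox6c (SD 0.066), and Ndufv2 (SD 0.068), an iron-sulfur subunit of complex I. The widest were Ndufa4l2 (SD 0.921), a paralog of Ndufa4, and Atp5g2 (SD 0.518), another c subunit gene. Members with low signal beside the others were Ndufa4l2 (1056), Ndufb1 (2171), Cox4i2 (1202), Cox6b2 (548.1), Cox7c (566.4) and Cox8c (3509). The added constant shrinks differences most at the lowest of these, Cox6b2 and Cox7c. Ndufb1 and Cox8c lay above the median of all tested genes, 1977. Cox7b2 (211.4) and Ndufb4 (364.7) did not pass the filter. For 17 of the 79 members, Ndufa3, Cox8a, Cox7c, Cox5b and Atp5e among them, the probe set is of a kind that can bind similar sequences or several transcripts, and these values are uncertain. The rule also takes in Cox7a2l, a factor for supercomplexes rather than a plain subunit. It counts Ndufa4 by its name with complex I, although its protein is known to sit in complex IV. The paralog Ndufa4l2 is likewise counted with complex I by its name alone.

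Array quality and tissue content differed between arrays. The arrays were scanned on 3 days, always with the 2 arms of a time together: 0.5 and 3 h on day 1, then 1, 4 and 12 h on day 2, and 2 h, 5 h and the 0 h array on day 3. The 4 arrays of day 1 were also the only ones of their chip lot, so that scan day 1 and chip lot cannot be told apart. The log2 ratio of the 3' to the 5' Gapdh control probe sets, a measure of how complete the labelled RNA was, was 2.17 to 3.92 on 6 arrays (aldosterone at 1, 2, 4 and 12 h, control at 4 and 12 h) and -0.23 to 1.28 on the 9 others. Transcripts of lung epithelium (6 of 6 tested markers, Scgb1a1 and Sftpc among them) had a summed signal of 435000 on the aldosterone and 187400 on the control array at 1 h, against 1124 to 5785 on the other 13. The summed signal of 6 atrial markers ran from 50100 to 499000, highest on the not-injected array, and that of 5 fat markers from 3793 to 56900. The 8 cardiomyocyte markers were all measured, and their summed signal ran from 1428000 (aldosterone, 3 h) to 2288000 (control, 12 h). After quantile normalization their median deviation stayed between -0.03 and 0.04 on the 15 arrays. This does not show that the content of cardiomyocytes was equal. In whole hearts, fewer cells of a type and less RNA per cell cannot be told apart.

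No member was called for aldosterone over the 7 times. In limma with time as a block, 0 of 79 members had an adjusted p under 0.05, as did 0 of all 22521 probe sets (0%). Without adjustment, 0 members and 4.44% of all probe sets had a p under 0.05. The member differences, aldosterone minus control, had a median of -0.01 and ran from -0.21 to 0.27, and 32 of 79 were positive, against 51.6% of all probe sets. That tally turned with the scaling: 46 of 79 were positive under deposited scaling (47.7% of all probe sets) and 74 of 79 under median scaling (68.7%). By complex, the median after quantile normalization was 0.01 for complex I, -0.03 for complex II, 0 for complex III, -0.02 for complex IV and -0.04 for complex V.

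The intervals of most members were narrow, as they were for other genes of high signal. For 68 of the 79 members the 95% interval of the difference lay within a 1.25-fold change in either direction, against 26.9% of all probe sets, and for 75 it lay within 1.5-fold, against 75.3%. All 79 lay within 2-fold (96.9% of all probe sets). Most members, 73 of 79, were among the top 5% of genes by mean signal, and of the 511 other genes there 88.3% had an interval within 1.25-fold, against 86.1% of the members. A p that misses the threshold does not show that the arms were equal.

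Ndufa10, an accessory subunit of complex I, had the smallest p. Its log2 level was 16.32 to 16.66 (median 16.49) with aldosterone and 16.15 to 16.99 (median 16.72) in controls, a difference of -0.16 ± 0.08 (SE; limma adjusted p = 0.974), with 2 of 7 times higher. The arms overlapped, with control arrays at both ends. Atp5e, the epsilon subunit of the ATP synthase, was 15.20 to 15.63 (median 15.52) with aldosterone and 15.35 to 15.79 (median 15.73) in controls, a difference of -0.12 ± 0.06 (SE; limma adjusted p = 0.974). The catalytic beta subunit gene Atp5b had the same lowest, median and highest levels in both arms, 17.57, 17.69 and 17.79. Sdha, the flavoprotein of complex II, was 16.31 to 16.71 (median 16.53) with aldosterone and 16.32 to 16.66 (median 16.57) in controls. Cox4i1, the main isoform of that complex IV subunit, was 17.41 to 17.54 (median 17.49) with aldosterone and 17.31 to 17.64 (median 17.51) in controls. No member had separate arms (0.0311% of all probe sets), and none moved in the same direction at all 7 times (1.57%).

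The arms also overlapped for core subunits that carry electrons or make ATP, named here after their values were seen. Ndufs1, the large iron-sulfur subunit of complex I, was 15.16 to 15.72 (median 15.55) with aldosterone and 15.27 to 15.72 (median 15.47) in controls. Ndufs7, whose iron-sulfur cluster passes electrons to ubiquinone, was 16.34 to 16.59 in both arms (median 16.48 with aldosterone and 16.47 in controls). The arms covered each other almost fully in both genes.

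Sdhb, the iron-sulfur protein of complex II, was 16.99 to 17.13 (median 17.11) with aldosterone and 16.94 to 17.23 (median 17.12) in controls. Uqcrfs1, the Rieske protein that hands electrons on towards cytochrome c, was 16.74 to 17.13 (median 16.99) with aldosterone and 16.68 to 17.10 (median 16.98) in controls. Here, too, the arms overlapped. Atp5a1, the alpha subunit of the ATP synthase head, was 17.91 to 18.08 (median 17.95) with aldosterone and 17.81 to 18.08 (median 17.89) in controls, a difference of 0.06 ± 0.05 (SE; limma adjusted p = 0.974). Atp5c1, the gamma subunit that turns inside that head, was 17.21 to 17.42 with aldosterone and 17.13 to 17.54 in controls, with a median of 17.33 in both arms.

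**Figure D1:**
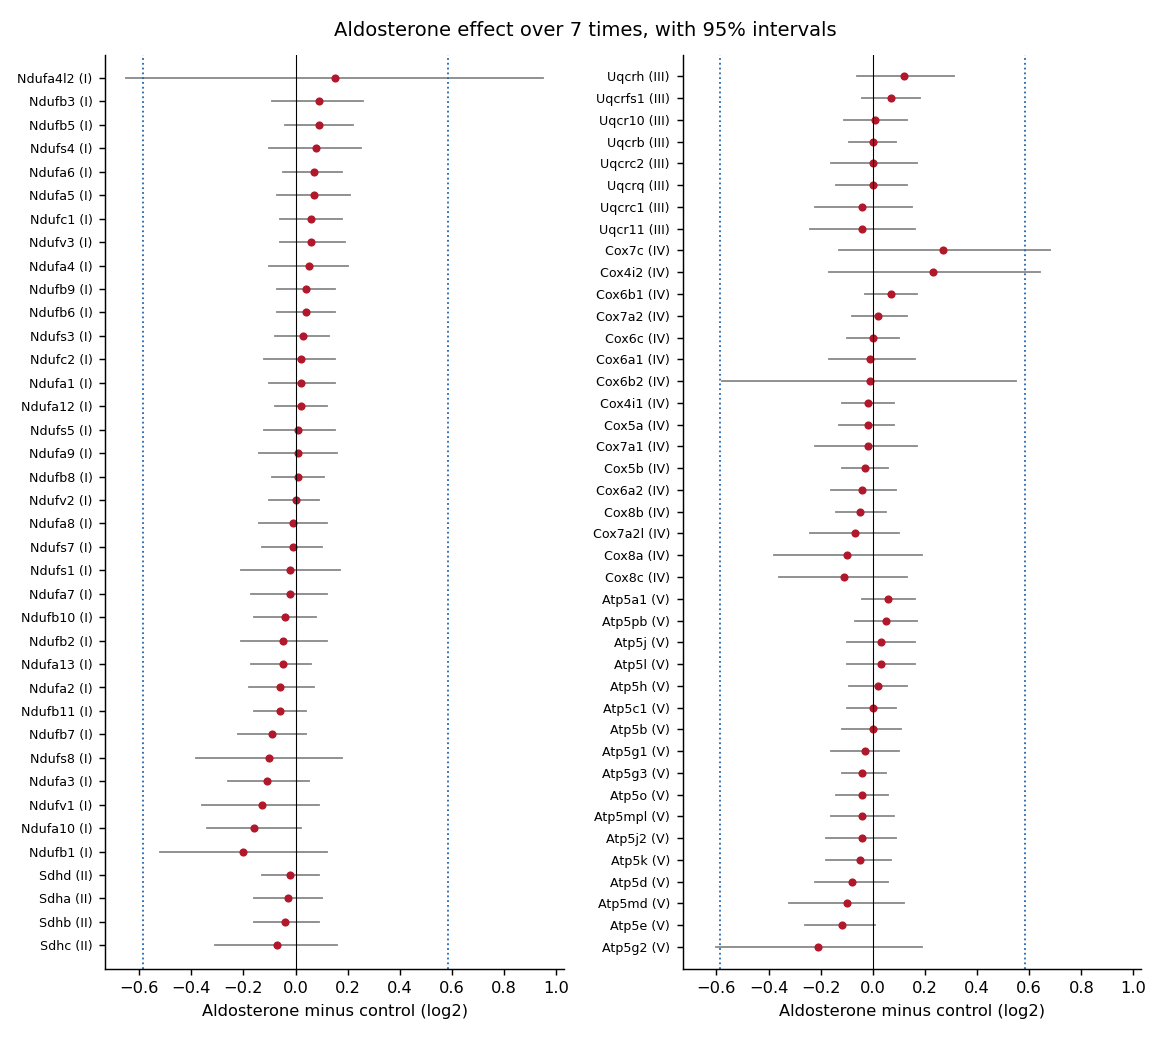
Difference between aldosterone and control (log2) over 7 times for each of the 79 members, with the complex in parentheses; points are limma estimates, bars 95% intervals and dotted lines a 1.5-fold change. Estimates ran from -0.21 to 0.27, and the intervals of 75 members lay between the dotted lines.

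At single times, where each arm had 1 array and there is no replicate check, few members passed a 1.5-fold difference. They were 0 at 0.5 h (18.6% of all probe sets), 4 at 1 h (18.8%), 5 at 2 h (21.5%), 4 at 3 h (13.0%), 4 at 4 h (13.3%), 1 at 5 h (12.9%) and 4 at 12 h (19.7%). The median over members stayed between -0.04 and 0.03 at every time. Other genes of high signal also varied less between arrays than genes in general. The median SD was 0.129 for members, 0.156 for the 511 other genes of the top 5% and 0.295 for all tested genes.

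The windows gave no call either. Between 0.5 and 2 h, 0 of 79 members had an adjusted p under 0.05 (0% of all probe sets). An unadjusted p under 0.05 was found for 7 (8.86%, against 7.35% of all probe sets). Among the 511 other genes of the top 5% by signal this share was higher, 10.4%. Atp5g2 had a difference of -0.70 ± 0.21 (SE; limma adjusted p = 0.674), and Ndufb2, an accessory subunit of complex I, had a difference of -0.28 ± 0.08 with the same adjusted p. Between 3 and 5 h there were again 0 calls (0%) and 3 members with an unadjusted p under 0.05 (3.80%, against 4.67%), Ndufa4l2, Atp5e and Ndufb7. The difference between the windows was called for 0 members (0%), and 8 had an unadjusted p under 0.05 (10.1%, against 6.68%). The 511 other genes had shares of 4.11% between 3 and 5 h and 8.41% for the difference between the windows. For 4 members (Ndufb2, Ndufs7, Ndufv2 and Sdha) the arms differed one way at 0.5, 1 and 2 h and the other way at 3, 4 and 5 h (5.06%, against 3.47%).

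The early count changed without the 0.5 h pair. Fitted on 1 and 2 h alone, 4 arrays with a single residual degree of freedom per probe set, aldosterone was lower for 7 members (8.86%, against 2.38% of all probe sets called, 2.11% lower) and higher for 0 (0.266%). They were Atp5g2 (difference -1.06 ± 0.12 SE, limma adjusted p = 0.000481), Ndufs8, an iron-sulfur subunit of complex I (-0.71 ± 0.10, adjusted p = 0.00191), Ndufv1, the NADH-oxidizing flavoprotein (-0.59 ± 0.10, adjusted p = 0.00786), Ndufa4l2 (-1.47 ± 0.30, adjusted p = 0.018), Cox8a (-0.66 ± 0.14, adjusted p = 0.0306), Uqcrc1, a core protein of complex III (-0.39 ± 0.09, adjusted p = 0.035) and Sdhc, a membrane anchor of complex II (-0.51 ± 0.12, adjusted p = 0.0492). The count was 5 under deposited scaling, 2 under median scaling (Atp5g2 and Ndufa4l2), 1 without a filter (Atp5g2) and 0 without the variance trend, by settings chosen after the values were seen. With the mean of all probe sets it was 8 (3.45% of all genes called): Ndufv1 was lost, Atp5d was lower and Cox6c was higher. The share of members called at 1 and 2 h was not set against genes of like signal. From 0.5 to 2 h the median SE was 0.09 for members and 0.22 for all probe sets. It was 0.11 for the 511 other genes of the top 5% by signal.

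At 1 and 2 h the Gapdh ratio also differed most between the arms: aldosterone minus control was 2.54 and 3.00 there, against -0.06 at 0.5 h, -0.66 at 3 h, -1.04 at 4 h, 0.81 at 5 h and -1.43 at 12 h. At 3, 4 and 12 h the ratio difference had the other sign, and the 7 members varied in how far theirs did. Atp5g2 differed between arms by -0.99 and -1.13 at 1 and 2 h, by 0.38, 0.48 and 0.32 at 3, 4 and 12 h, and by -0.51 at 5 h. Ndufa4l2 differed by -1.65 and -1.30 at 1 and 2 h, by 1.76, 1.42 and 0.95 at 3, 4 and 12 h, and by -0.16 at 5 h. At 3, 4 and 12 h the other 5 differed by 0.02, 0.24 and 0.40 (Ndufs8), 0.02, 0.12 and 0.34 (Ndufv1), -0.07, 0.47 and 0.03 (Cox8a), -0.04, 0.41 and 0.06 (Uqcrc1) and 0.01, 0.30 and 0.39 (Sdhc). The fit of 1 and 2 h with the Gapdh ratio as a covariate leaves no residual degree of freedom and could not be made, so the part of the ratio was not tested. The 2 tested blood markers, Hbb-b2 and Alas2, also had a lower median deviation with aldosterone at these times. It was 0.14 against 1.00 in the control at 1 h and -0.22 against 0.77 at 2 h. At 0.5 h it was lower too, -0.47 against 0.01, and at 3, 4, 5 and 12 h it was higher with aldosterone. The 3 tested skeletal muscle markers had a lower median deviation with aldosterone too, -0.25 against 0.16 at 1 h and -0.37 against 0.11 at 2 h. Theirs was also lower at 0.5, 3 and 5 h, and higher at 4 and 12 h. Medians of the lung, atrial and fat markers were higher with aldosterone at 1 h and lower at 2 h. The part of these markers was not tested.

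Over all 15 arrays the members were also set against the Gapdh ratio, in a split chosen after the values were seen. Sdhc was 14.85 to 15.27 on the 6 arrays with a ratio over 2 and 15.30 to 15.92 on the 9 others, a difference of means of -0.61. Uqcrc1 was 16.58 to 16.99 and 17.19 to 17.39 on the same arrays, a difference of -0.42. Both aldosterone and control arrays lay on each side. All arrays with a ratio over 2 but aldosterone at 2 h were scanned on day 2, where only the 1 h control had a lower ratio (0.78). Ratio and scan day can thus hardly be told apart. Sdhc had means of 15.83, 15.10 and 15.48 on days 1, 2 and 3. Ndufs4, an accessory subunit of complex I, ran the other way, and its 6 arrays with a ratio over 2 all lay above the 9 others. These 3 members were the ones without overlap (3.80%, against 2.86% of all probe sets). The members without overlap changed with the scaling: they were Ndufa2, Ndufc2 and Ndufs3, all higher on the 6 arrays, under deposited scaling, and Cox7a2 alone, also higher, under median scaling.

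Most members did not shift with the ratio by this much. The difference of means passed 1.25-fold for 9 of 79 members, 8 lower and 1 higher, against 28.6% of all probe sets, and 3 passed 1.5-fold (Atp5g2 -0.86, Ndufa4l2 -1.21 and Sdhc -0.61), against 8.33%. The 5 others that were lower were Ndufa3, Ndufs8, Ndufv1, Uqcrc1 and Cox8c, and the higher one was Cox7c. Probe sets of 1 gene did not shift alike: the 3 of Ndufv1 differed by -0.37, -0.13 and -0.08, and the 6 of Ndufs8 by -0.40 to -0.14, whereas both of Sdhc were lower, by -0.61 and -0.97. The part of the ratio in these differences was not tested. Most probe sets had lower signal than the members, and these shares were not set against genes of like signal.

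**Figure D2:**
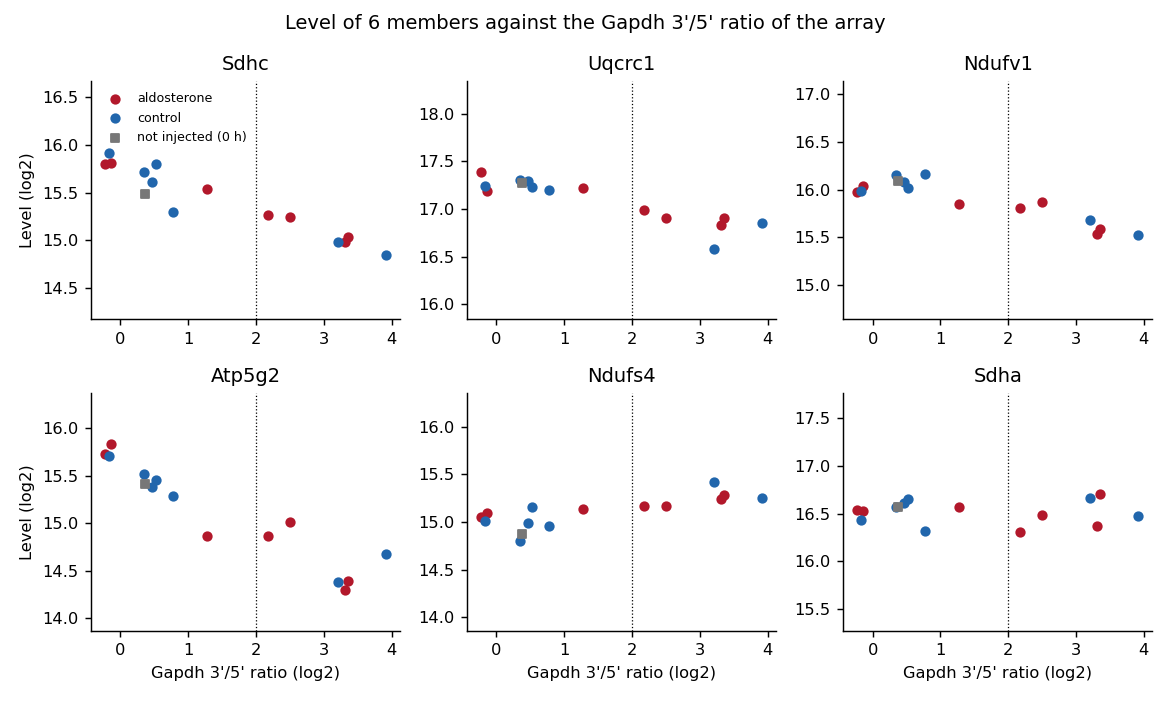
Log2 level of 6 members (vertical axes, each spanning 2.5 log2 units) against the log2 Gapdh 3'/5' ratio of the array (horizontal axes), with aldosterone in red, control in blue and the not-injected array as a grey square; the dotted line is a ratio of 2. On this quantile scale Sdhc, Uqcrc1, Ndufv1 and Atp5g2 had lower means on the 6 arrays right of the line, Ndufs4 had a higher one, and Sdha lay between 16.31 and 16.71 on both sides.

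Between times, 1 member of 79 was called, Ndufa3, an accessory subunit of complex I (1.27%, against 1.91% of all probe sets; moderated F test in limma, adjusted p = 0.0279). Its mean of both arms was 16.76 at 0.5 h, 15.97 at 1 h, 16.21 at 2 h, 16.70 at 3 h, 16.10 at 4 h, 16.32 at 5 h and 16.05 at 12 h, a range of 0.80. The aldosterone arrays read 16.78, 15.80, 16.07, 16.77, 15.97, 16.21 and 16.13 in that order, and the control arrays 16.74, 16.14, 16.34, 16.63, 16.23, 16.43 and 15.97. The 4 arrays at 0.5 and 3 h, which were scanned on day 1 and were of 1 chip lot, were the highest in both arms. A second probe set of the gene was also called (adjusted p = 0.0324) and the remaining one, with a mean signal of 524.2, was not (adjusted p = 0.665).

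The Ndufa3 call did not hold in every setting. It was lost under deposited scaling, median scaling, no filter, no variance trend and the Gapdh covariate. The mean of all probe sets and leaving out the 0.5 h or the 3 h pair also lost it. With scan day as a block Ndufa3 was not called either, with a range of 0.16. That fit compares only times of the same scan day and removes every difference between days. It therefore cannot decide whether 0.5 and 3 h differed from the other times. Sdhc had a similar course, 15.86, 15.14, 15.37, 15.81, 15.12, 15.57 and 15.04 from 0.5 to 12 h (limma adjusted p = 0.108), and its 4 day 1 arrays lay above the 11 others. Cox5b of complex IV and Ndufb8 of complex I lay below on day 1, so 3 members stood apart (3.80%, against 3.00% of all probe sets). None of these 3 did so under deposited or median scaling, where the counts were 1 (Ndufa3, higher) and 0. Without adjustment, 14 members (17.7%) and 18.8% of all probe sets had a p under 0.05. Of the 511 other genes among the top 5% by signal, 29.9% had such a p, and 28 were called. The 0.5 h pair lay outside the 12 later arrays for 2 members, Atp5c1 and Cox7c, both lower (2.53%, against 10.2%). The median range over times was 0.29 for members, 0.34 for the 511 other genes among the top 5% by signal and 0.60 for all tested genes.

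By complex, how far the median deviation of members from their own means moved with time depended on the scaling. Over the 7 times it spanned 0.09 to 0.28 after quantile normalization, 0.15 to 0.31 under deposited scaling and 0.36 to 0.57 under median scaling, with complex II the widest in the first and complex III in the others. After quantile normalization, the mean of both arms spanned 0.10 for complex I, 0.14 for complex III, 0.09 for complex IV and 0.12 for complex V. Complex II, with 4 genes, spanned 0.28: its aldosterone arrays read 0.04, -0.19, 0.01, 0.04, -0.18, 0.08 and -0.09 from 0.5 to 12 h, and its control arrays 0.01, -0.16, 0.09, 0.12, -0.09, 0.13 and -0.13. The 6 arrays of scan day 2 were the only ones below 0, in both arms. Sdhd, the other membrane anchor, was below all other arrays on day 2, as was Atp5mpl, a small ATP synthase subunit, and Uqcrfs1, the Rieske iron-sulfur protein, was above (3 of 79, 3.80%, against 0.493% of all probe sets). None of the 3 kept this under deposited or median scaling.

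**Figure D3:**
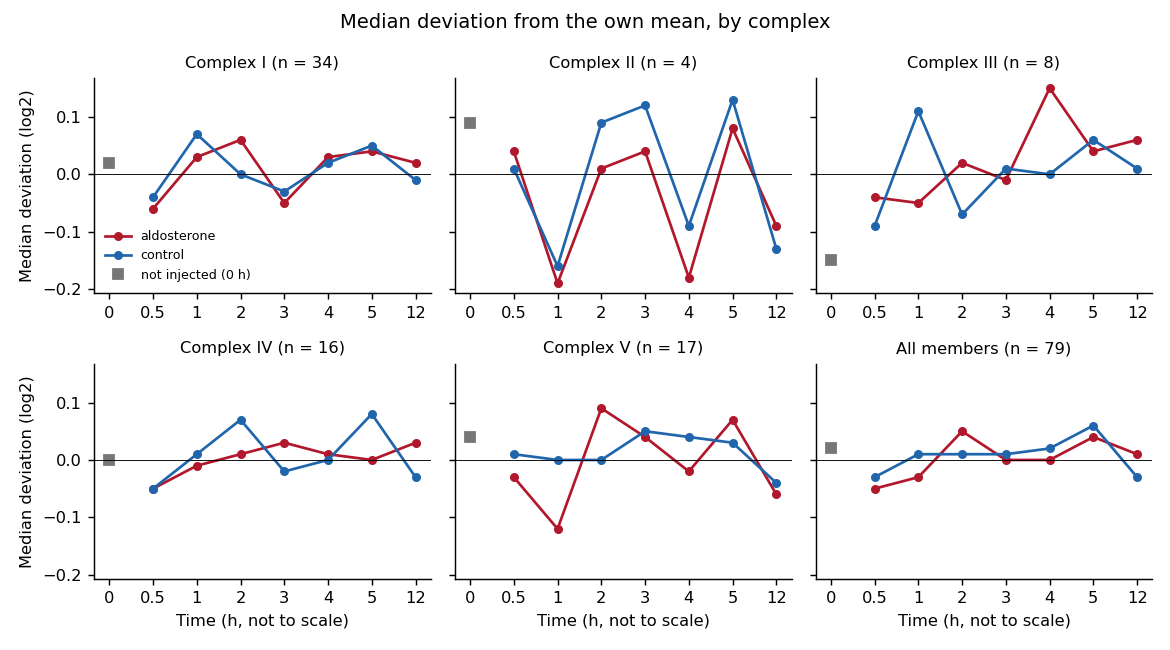
Median deviation from the own mean (log2) of the members of each complex and of all 79 (panels), by time, with aldosterone in red, control in blue and the not-injected array as a grey square; each point is 1 array. Complex II lay below 0 at 1, 4 and 12 h in both arms, down to -0.19 at 1 h, on the quantile scale.

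Over 0.5 to 5 h the slopes of the members were small. Of 79 members, 0 were called (0.151% of all probe sets), 7 had an unadjusted p under 0.05 (8.86%, against 9.13%), and the slopes ran from -0.13 to 0.10 log2 per h. Atp5e had 0.07 ± 0.02 (SE; limma adjusted p = 0.351). The slopes of the arms were called different for 0 members (0% of all probe sets), 1 member had an unadjusted p under 0.05 (1.27%, against 2.09%), and this was Ndufb2 (difference 0.11 ± 0.05, limma adjusted p = 1).

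At 12 h, set against the 6 earlier times, 0 members were called (0.0622% of all probe sets). An unadjusted p under 0.05 was found for 8 (10.1%, against 9.33%). Among the 511 other genes of the top 5% by signal this share was higher, 14.5%. Uqcrh, the hinge protein of complex III, had a difference of -0.41 ± 0.13 (SE; limma adjusted p = 0.337). Its 12 h arrays read 15.87 with aldosterone and 16.17 in the control, against 16.34 to 16.73 and 16.17 to 16.63 at the earlier times; the 16.17 of the 12 h control was the lower of these before rounding. It was the single member with both 12 h arrays outside the range of the 12 earlier ones (1.27%, against 4.55% of all probe sets). Under deposited scaling these were 14 members, 13 of them higher, and under median scaling 5, all higher; Uqcrh was among neither. Uqcrq, another small subunit of complex III, had a difference of 0.25 ± 0.09 (limma adjusted p = 0.426).

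Both 1 h arrays, the ones with lung transcripts, lay outside the range of the 12 other timed arrays for 8 of 79 members (10.1%, against 2.79% of all probe sets). Ndufb6, Ndufb8 and Ndufb11, of the membrane arm of complex I, were higher at 1 h (3 members, against 1.63% of all probe sets). Ndufa9 of complex I, Cox7a1 and Cox8b of complex IV, and Atp5l and Atp5o of complex V were lower (5 members, against 1.16%). The count was 2 (Cox8b and Sdhd, both lower) under deposited scaling and 0 under median scaling, so of the 8 only Cox8b stood apart under a second scaling.

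Several complex IV subunits have an isoform known from heart and skeletal muscle and a ubiquitous one. Cox7a1, a muscle isoform, read 16.55 with aldosterone and 16.55 in the control at 1 h, against 16.56 to 17.18 on the 12 others. Cox8b, also a muscle isoform, read 16.56 with aldosterone and 16.63 in the control at 1 h, against 16.70 to 16.99 on the 12 others. These were the lowest timed values of both genes after quantile normalization, for Cox7a1 by 0.01. In deposited signal, Cox7a1 at 1 h (102083 with aldosterone and 99040 in the control) was above the controls at 0.5, 2 and 5 h (98338, 92991 and 94398).

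Cox6a2, the muscle isoform of Cox6a, did not share this: its mean of both arms ran from 17.64 to 17.70 over the 7 times, the smallest range of the isoforms. The ubiquitous Cox6a1 had its highest mean of both arms at 1 h, 15.86, and its lowest at 3 h, 15.30; its 12 h control array, at 15.86, was above the 1 h control array, at 15.85. The ubiquitous Cox7a2 ran from 17.48 to 17.71 and Cox8a from 14.82 to 15.13, and neither had its highest mean at 1 h. For the isoforms of Cox4, Cox4i1 ran from 17.40 to 17.59 and Cox4i2, at low signal, from 10.03 to 10.62. The part of the lung transcripts in these values was not tested.

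**Figure D4:**
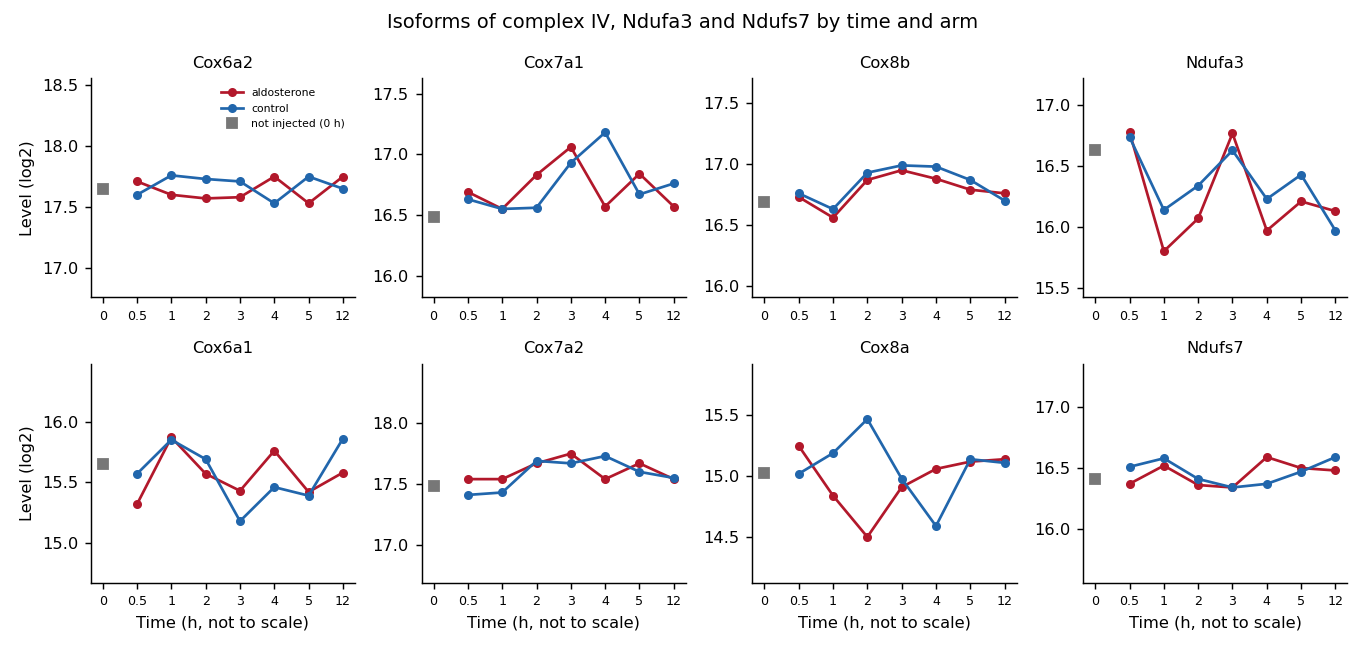
Log2 level (vertical axes, each spanning 1.8 log2 units) by time for muscle isoforms of complex IV (Cox6a2, Cox7a1, Cox8b), their ubiquitous partners below them (Cox6a1, Cox7a2, Cox8a), and Ndufa3 and Ndufs7; aldosterone is red, control blue and the not-injected array a grey square. On this quantile scale Cox7a1 and Cox8b had their lowest timed values at 1 h, and Ndufa3 was highest at 0.5 and 3 h in both arms.

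The c subunit of the ATP synthase, which forms the rotating ring, is encoded by 3 genes with separate presequences. Atp5g1 read 16.87 to 17.28 with aldosterone and 17.05 to 17.36 in controls. Atp5g3 read 17.75 to 17.89 with aldosterone and 17.83 to 17.91 in controls. Atp5g2 was the variable one, at 14.30 to 15.83 with aldosterone and 14.38 to 15.71 in controls, and its low arrays were those with a Gapdh ratio over 2 and the aldosterone array at 5 h, whose ratio was 1.28.

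The array without an injection had no replicate. Its values lay outside the range of the 14 timed arrays for 14 of 79 members (17.7%, against 29.3% of all probe sets), 5 above and 9 below. Uqcrh was 15.87 to 16.73 on the timed arrays and 15.64 on the not-injected one. Ndufa4l2 was 8.20 to 11.01 on the timed arrays and 11.26 on the not-injected one, and Cox7a1 was 16.55 to 17.18 and 16.48. The median over members of the not-injected array minus the mean of the 14 timed arrays, a difference in that direction, was 0.02 for all members and -0.16 for complex III.

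This count depended on the scaling. It was 37 members under deposited scaling, 33 of them lower, against 31.5% of all probe sets, and 69 under median scaling, all lower, against 39.1%. The members' median deviation on that array was 0.02 after quantile normalization, -0.23 under deposited scaling and -0.62 under median scaling, where all tested genes had a median of -0.02, 0 and -0.40. Direction at 0 h was therefore not settled.

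**Figure D5:**
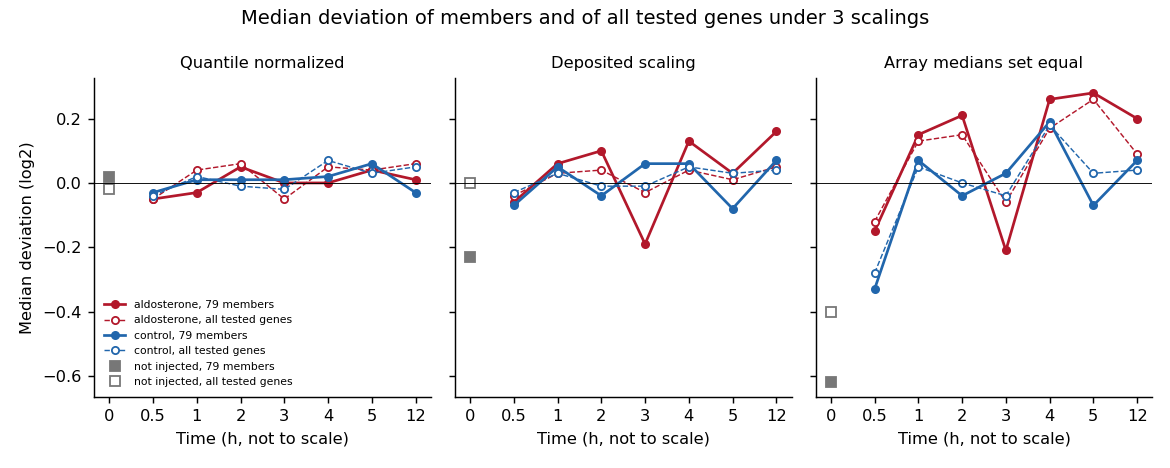
Median deviation (log2) by array of the 79 members (filled symbols) and of all tested genes (open symbols) under 3 scalings (panels), with aldosterone in red, control in blue and the not-injected array as grey squares; each point is 1 array. The members' medians stayed within -0.05 and 0.06 after quantile normalization, and the not-injected array read -0.23 under deposited scaling and -0.62 with array medians set equal.

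Neighbouring pathways were described by lists chosen with earlier results known. For aldosterone over all times, 0 genes were called among 13 complex I assembly factors, 26 assembly factors of complexes II to V, 17 regulators, 14 electron carriers and exchangers, 16 citrate cycle genes, 13 fatty acid oxidation genes, 46 cytosolic and 76 mitochondrial ribosome genes (0% of all probe sets). Their median differences lay between -0.06 (fatty acid oxidation) and 0.04 (assembly of complexes II to V), and all tested genes had a median of 0.01. Between times, 1 of the 17 regulators was called, Ppargc1a, which encodes the coactivator PGC-1 alpha (range 1.04, limma adjusted p = 0.0207). So was 1 of the 46 cytosolic ribosome genes, Rps26. No gene of the other 6 lists was called between times, against 1.91% of all probe sets. Time and scan day are partly confounded for Ppargc1a and Rps26, as for Ndufa3. These 2 genes were not fitted under the alternative settings.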

How the data were processed

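Total RNA of mouse whole hearts was measured on 15 Affymetrix arrays, and the number of arrays limits the precision. The deposited intensity values are linear; the authors made them for each probe set in GCOS 1.2, per the submitters' processing notes, scaled to a trimmed mean of 1500 on every array. Scan days came from the deposited experiment files.

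The 45101 probe set signals had 167.8 added (their 25th percentile), were turned to log2 and quantile normalized. The 22521 probe sets with a mean signal of at least 517.2 were tested, control probe sets left out. Models were fitted in limma 3.58.1 (R 4.3.3) with a variance trend and Benjamini-Hochberg adjustment over all tested probe sets, and calls had an adjusted p under 0.05. Fits: arms with time as a block (7 times, 0.5 to 2 h, 3 to 5 h, and the difference of the windows); times, the slope over 0.5 to 5 h and 12 h against earlier, with arm as a covariate. In the last 3, both arrays of a time counted separately, so p may be too small. Figures used matplotlib 3.10.9 and steps were tested on simulated data. Symbols came from the platform annotation. The members, lists and rules were chosen with earlier results of these data known. Named genes were the members called or with the smallest p per comparison, the widest and steadiest of each complex, the isoforms, and members that are not plain subunits or had low signal.

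Alternatives covered scaling, pseudocount, filter, variance trend, array weights, the Gapdh ratio, probe set choice, scan day, a random block and leaving out each time pair.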

Additional observations from a re-analysis of the deposited data

Results flagged for a closer look

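In groups of 7 arrays, 2 of 92 groups examined had a value far from its neighbours. The rule has a nominal chance rate of about 5% of groups, and 2 of 92 is below it. Atp5g1 read 16.87 on the aldosterone array at 1 h, and the next value of the aldosterone arrays was 17.13. Atp5g3 read 17.75 on the aldosterone array at 5 h, and the next was 17.83. The 1 h array is one of those with lung transcripts and a Gapdh ratio over 2.

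For 4 of 79 members (5.06%, against 3.47% of all probe sets) the arms differed in one direction at 0.5, 1 and 2 h and in the other at 3, 4 and 5 h. The difference between arms at 3 to 5 h minus that at 0.5 to 2 h was 0.43 for Ndufb2, 0.17 for Ndufs7, -0.08 for Ndufv2 and -0.27 for Sdha. The test of this difference in limma gave an adjusted p of 0.7375 for Ndufb2 and Sdha, and none of the 4 was called.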

How the results depend on the processing

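The counts of 0 called members held under all alternatives for aldosterone over all times, at 3 to 5 h, the difference of windows, both slopes and 12 h. At 0.5 to 2 h the count ran from 0 to 7 when a time pair was left out, and was 7 without the 0.5 h pair. The 7 at 1 and 2 h became 2 under median scaling, 1 without a filter and 0 without the variance trend, and 5 to 8 under deposited scaling, a pseudocount of 16, a stricter filter and the mean of all probe sets, settings added after the values were seen. The 8 with the mean of all probe sets were 7 lower, with Atp5d and without Ndufv1, and 1 higher, Cox6c. Between times the count ran from 0 to 2: it was 0 under deposited scaling, no filter, no variance trend, the Gapdh covariate, the mean of all probe sets, scan day as a block and without the 0.5 or 3 h pair, and 2 without the 2 h pair. Under median scaling it was 1, Cox6a1 in place of Ndufa3.

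Medians over members moved with the scaling. For deposited and then median scaling they were 0.019 and 0.137 at 0.5 to 2 h, -0.047 and 0.037 at 3 to 5 h, -0.071 and -0.105 for the difference of windows, 0.003 and 0.050 for the slope, 0.009 and 0.013 for the difference of slopes, and 0.116 and 0.104 at 12 h; over all times the median was 0.103 under median scaling. With the mean of all probe sets, they were -0.022 at 3 to 5 h and 0.005 for the difference of slopes. In the scan day fit the median at 12 h was 0.000. With a time pair left out, the median ran from -0.020 to -0.007 at 3 to 5 h and from -0.012 to 0.003 for the difference of slopes, -0.007 and 0.003 being without the 5 h pair.

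The range over times for complexes I, II, III and IV was 0.24, 0.21, 0.31 and 0.26 under deposited scaling, and for complexes I to V it was 0.54, 0.38, 0.57, 0.36 and 0.36 under median scaling. The cause was not tested. The scan day could be fitted as a block for times, slope and 12 h alone, because both arms of a time share it. For times, that fit compares only times of the same day. Time as a block already pairs the arms in each aldosterone fit. Only 7 pairs of arrays, unknown pooling and, for 6 members, a signal far below that of the others limit what could be seen.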
